A study of Mus musculus with 8 samples.

Results

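Retinoic acid (RA) added to complete medium was compared with vehicle (Veh) in primary cultures of mouse spermatogonia, and the response is described across all genes, outside the meiosis programme. The comparison holds the 4 libraries whose labels give RA or Veh, 2 of each, among the 8 RNA-seq libraries of the series. The other 4 libraries come from cells in nutrient restriction medium (90% Earle's balanced salt solution, EBSS, with 10% complete medium) without RA (NR) or with it (NRRA). All cultures were of C57BL/6XDBA/2 spermatogonia, had been started from testes of 6-day-old pups and were grown in complete spermatogonial medium with bFGF and GDNF. RA cells received 100 nM RA in that medium for 2 days, and Veh cells the vehicle. The cells grew on irradiated mouse embryonic fibroblasts (the feeder cells), and the harvested RNA can hold feeder RNA, so a library measures a mixture. In such bulk RNA, fewer cells of a type and less RNA per cell cannot be told apart.

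RA is the active derivative of vitamin A. It binds the nuclear receptors RAR and RXR, which sit as heterodimers on response elements in DNA and recruit coactivators in place of corepressors once RA is bound. In the testis, RA moves undifferentiated spermatogonia into differentiation, which is marked by the receptor tyrosine kinase KIT, and later induces *Stra8*, a gatekeeper of meiosis. Self-renewal is kept by GDNF, acting through GFRA1 and RET, and by FGF2, and cultured spermatogonia depend on both factors. Fibroblasts also carry RA receptors.

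The 4 libraries held between 19261333 and 27883333 counted reads, so that a level of 1 CPM (read counts scaled to library size) stood for about 19.2 to 28.9 reads. Within a condition, the libraries differed by more than sampling noise (chi-square per gene, 3.93 for Veh and 2.12 for RA). The study describes its sequencing replicates as independent biological ones, and the labels do not say which cultures they came from. The p-values rest on the spread within conditions over all 8 libraries, with 1 estimate shared by all conditions. The same chi-square was 1.58 for NR and 1.73 for NRRA, so the shared estimate can understate the spread of Veh. Of 55421 genes in the table, 20477 passed the filter on low counts. Each was tested by quasi-likelihood in edgeR, and p was adjusted over all of them after Benjamini and Hochberg. Below, a gene rose or fell where its edgeR adjusted p was under 0.05, and it was called where the change was also at least 2-fold. Levels are CPM, differences are log2 fold changes (RA minus Veh) ± SE, and each condition has n = 2. The SE is derived from the F statistic and can be too small for large changes that rest on few reads. Germ cell genes were present in every library. *Ddx4*, an RNA helicase of germ cells, stood at 131 and 145 CPM in Veh and 155 and 171 in RA. Of 15 Sertoli cell genes, *Amh*, *Gata1*, *Cst12*, *Rhox8* and *Fshr* had between 0 and 11 reads in any of the 4 libraries. The 10 that could be tested summed to 2446 and 2538 CPM in Veh and to 2078 and 2007 CPM in RA, of which *Ctsl*, a lysosomal protease that many cells express, held 2130 and 2247 CPM and 1819 and 1761 CPM. Leydig cell genes, of which 2 of 8 could be tested, summed to 7.08 and 8.65 CPM in Veh and 12.9 and 14.7 CPM in RA, endothelial genes to 18.9 and 17.6 CPM and to 14 and 15.2 CPM, and spermatid genes to at most 2.81 CPM. Fibroblast RNA was abundant, and the 26 fibroblast markers summed to 29825 and 30129 CPM in Veh and to 24832 and 23140 CPM in RA. The weight of this shift in each result below was not tested.

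RA changed many genes by a small amount and fewer by a large amount. Of the genes tested, 970 (4.74%) were called higher and 564 (2.75%) were called lower, while 4048 (19.8%) rose and 4789 (23.4%) fell regardless of the size of the change. Among the genes called higher, 83 had risen at least 8-fold and 718 less than 4-fold. Among those called lower, 43 had fallen at least 8-fold and 419 less than 4-fold. Protein-coding genes made up 73.8% of the genes called higher and 78.9% of those called lower.

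The response elements that RAR and RXR bind are built from direct repeats of a 6-base core. Cores reading AGGTCA, others reading AGTTCA, others reading GGGTCA and others reading GGTTCA were searched, in any combination, on both strands in windows from 250 bases before to 50 bases after each RefSeq gene start (GRCm38.p6), as pairs spaced by 5, 2 or 1 bases. Pairs spaced by 5 bases were found for 31 of 27025 genes with a window (0.115%), for 4 of 610 genes called higher (0.656%) and for 1 of 358 called lower (0.279%). Pairs spaced by 2 bases were found for 2 of the 610 genes (0.328%, against 0.311% of all genes), and pairs spaced by 1 base for 2 (0.328%, against 0.263%). The genes called higher with a pair spaced by 5 bases were *Cyp26a1*, *Rarb*, *Prokr2* and *Ppbp*. The sites of the first 3, for which a stretch of 30 bases could be printed, are shown with the letters found beside these genes. Each reads on the strand of the gene, and the capitals mark both cores.

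*Cyp26a1*, chr19:37697770-37697799 (+): taaagaTGAACTttgggTGAACTaatttgt
*Rarb*, chr14:16575506-16575535 (-): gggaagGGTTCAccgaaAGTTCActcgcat
*Prokr2*, chr2:132385568-132385597 (-): ctgctgAGGTCAcaacgGGTTCAagagctt

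The *Cyp26a1* pair reads on the opposite strand and ends 16 bases before the RefSeq start, and the last bases shown fall in the first untranslated exon of GENCODE. The *Rarb* pair ends 37 bases before the start, in an untranslated exon of another GENCODE transcript of the gene. The *Prokr2* pair ends 128 bases before the start, outside GENCODE genes. The 1 gene called lower with such a pair was *Gm1043*, at 0.55 and 0.68 CPM in Veh and 0.15 and 0.31 CPM in RA. The window of *Stra8* held 2 single cores and no pair. A match describes letters only, and binding was not measured here.

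Genes that RA receptors are known to switch on rose, and several were among the largest rises in the table. Of 22 direct retinoid targets tested, 14 were called higher and 0 called lower, against 4.74% and 2.75% of all genes. At the adjusted p alone 17 rose and 2 fell, and the median log2 fold change was 1.83, against -0.02 over all genes tested. Their summed level went from 439 and 428 CPM in Veh to 2237 and 2148 CPM in RA.

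*Stra8* (ENSMUSG00000029848, chromosome 6, bases 34920163 to 34939344 on GRCm38) stood at 1.14 and 1.51 CPM in the Veh libraries and at 632 and 653 CPM in the RA libraries. It rose by 8.92 ± 0.08 on the log2 scale, or 485-fold (edgeR adjusted p = 8.1e-31). With so few reads in Veh, this SE understates the error of the rise. The cytochrome P450 enzymes that clear RA rose together. *Cyp26a1* was at 0.50 and 0.42 CPM in Veh and at 118 in both RA libraries (8.0 ± 0.12). *Cyp26c1* went from 0.25 and 0.63 CPM to 7.19 and 7.28 CPM (4.05 ± 0.25). *Cyp26b1* already stood at 125 and 119 CPM in Veh and reached 713 and 647 CPM (2.48 ± 0.05). The Cyp26 genes thus covered both a gene that was nearly silent without RA and one that was not. *Rarb*, an RA receptor gene, went from 0.45 and 0.42 CPM to 42.2 and 39.8 CPM (6.55 ± 0.15). Of its exon bases, 34.1% overlap *Top2b* on the opposite strand. *Stra6*, the cell surface receptor for retinol-binding protein, went from 1.09 and 1.77 CPM to 38.6 and 37.1 CPM (4.73 ± 0.15). The RA and Veh libraries overlapped in none of these genes. That does not set them apart, since 969 of the 970 genes called higher had no overlap.

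Other direct targets rose too. *Dhrs3*, which reduces retinal to retinol, was at 12.9 and 13.3 CPM in Veh and at 130 and 118 CPM in RA (3.24 ± 0.07). *Crabp2*, a binding protein for RA inside the cell, rose by 1.24 ± 0.09. *Rec8*, a cohesin subunit of meiotic chromosomes that also responds to RA directly, went from 8.27 and 6.31 CPM to 78.0 and 77.4 CPM (3.41 ± 0.10). *Nrip1*, a corepressor that agonist-bound receptors recruit, went from 20.3 and 25.7 CPM to 92.5 and 94.7 CPM (2.03 ± 0.07). *Tgm2*, a transglutaminase, rose by 1.58 ± 0.07. *Prokr2* and *Ppbp* are not on the list of direct targets and were named only for their motif. These 2 genes stood at 0.84 and 1.04 CPM and at 3.02 and 4.48 CPM in Veh. They reached 3.26 and 4.20 CPM and 12.6 and 12.2 CPM in RA.

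**Figure D1:**
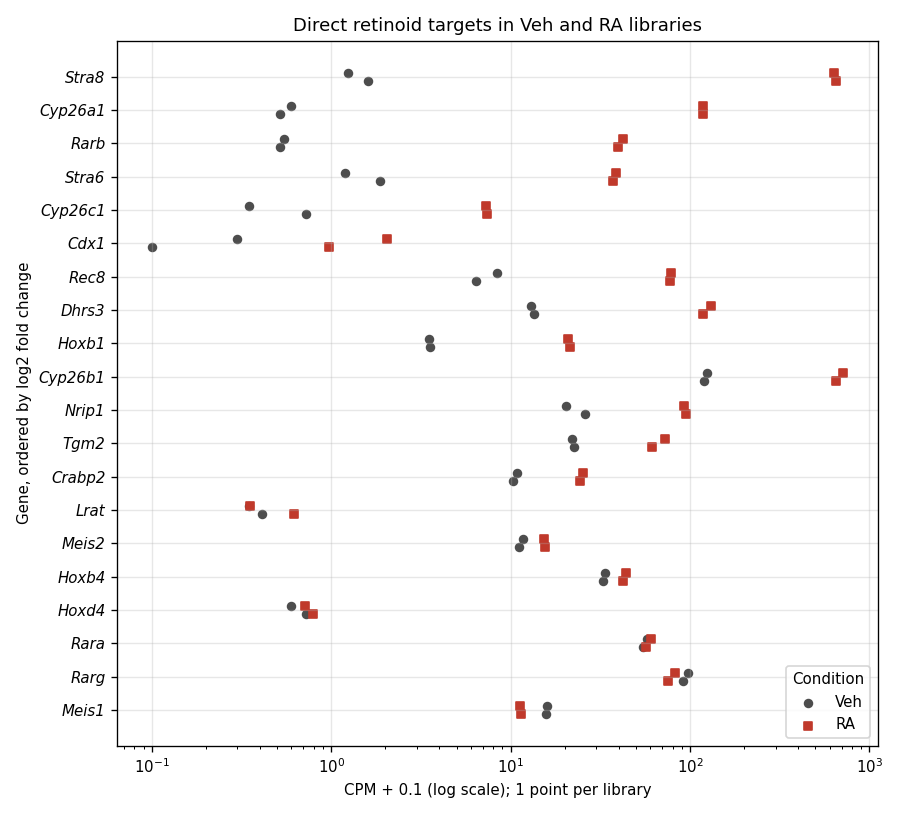
Each row is one of 20 of the 22 direct retinoid targets, and each point is the level in one library, as CPM + 0.1 on a log axis (grey circles, Veh; red squares, RA; 2 libraries each). For *Stra8* at the top the Veh libraries sit at 1.14 and 1.51 CPM and the RA libraries at 632 and 653 CPM, while *Rara*, *Rarg* and *Meis1* at the bottom lie close together or lower in RA.

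Other receptor genes for RA did not rise as *Rarb* did. *Rara* was at 57.6 and 54.4 CPM in Veh and at 60.6 and 56.8 CPM in RA, with overlapping libraries (0.07 ± 0.06, edgeR adjusted p = 0.40). *Rarg* fell by 0.27 ± 0.05, and *Rxra* by 0.77 ± 0.05. *Rxrg*, a low gene, fell from 5.80 and 5.11 CPM to 1.84 and 2.32 CPM (-1.36 ± 0.21). The corepressor *Ncor1*, which binds receptors without ligand, rose by 0.15 ± 0.05. Of the 12 receptors and coregulators, 2 were called higher (*Rarb* and *Nrip1*) and 2 called lower, among them *Rxrg*. The shares of all genes were 4.74% and 2.75%.

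Enzymes that make RA did not follow those that clear it. Of 19 genes of retinoid synthesis, storage and transport tested, 5 were called higher and 1 lower, against 4.74% and 2.75% of all genes. Of the 19, 10 did not pass the test. *Aldh1a3*, which oxidises retinal to RA, fell from 7.73 and 6.15 CPM to 1.99 and 2.08 CPM (-1.76 ± 0.18). *Aldh1a2*, another enzyme of that step, was at 13.6 and 12.1 CPM in Veh and 11.8 and 10.51 CPM in RA and did not pass the test (edgeR adjusted p = 0.090). The storage enzyme *Lrat* was at or under 0.52 CPM in each of the 4 libraries. *Crabp1*, a binding protein that shuttles RA in the cytoplasm, was at 961 and 923 CPM in Veh and 742 and 670 CPM in RA (-0.42 ± 0.04). *Bco1*, which splits carotenoids into retinal, was called higher at a low level, from 0.15 and 0.31 CPM to 0.97 and 1.08 CPM.

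Genes of undifferentiated spermatogonia moved the other way. Of 32 tested, 15 were called lower and 0 called higher, against 2.75% and 4.74% of all genes. At the adjusted p alone 25 fell and 2 rose, and the median log2 fold change was -0.90. Their summed level was 2263 and 2112 CPM in Veh and 1254 and 1233 CPM in RA.

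Genes of RNA-binding proteins and transcription factors were among the largest falls of this list. *Nanos2*, a translational repressor of the stem cell state, had 68 reads in each Veh library and 3 and 1 in the RA libraries. Its level was 41.8-fold lower, with a 95% counting interval from 16 to 156. Of its exon bases, 49.0% overlap *Gm45058* on the opposite strand. *Neurog3*, which marks early progenitors, had 8 and 9 reads in Veh and 0 and 1 in RA, a ratio of 20.9 with an interval from 3.28 to 874, so that its size is poorly known. *Nanos3* was at 17.2 and 14.9 CPM in Veh and at 1.38 and 2.22 CPM in RA (-3.10 ± 0.17). *Lhx1*, a transcription factor that depends on GDNF, fell from 58.5 and 57.7 CPM to 5.25 and 4.02 CPM (-3.68 ± 0.10). *T*, the gene of brachyury, fell from 5.99 and 7.61 CPM to 0.82 and 0.45 CPM (-3.49 ± 0.27). *Nanos2* and *Neurog3* thus stood near the floor of detection in RA, and the others were still measurable.

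*Zbtb16* encodes PLZF, a repressor needed to keep the stem cell pool. It was at 171 and 156 CPM in Veh and at 31.8 in both RA libraries, 5.15-fold lower (edgeR adjusted p = 3.6e-21). *Ret*, the signalling receptor of GDNF, was at 245 and 221 CPM in Veh and at 53.1 and 51.7 CPM in RA (-2.15 ± 0.05). *Gfra1*, the coreceptor that binds GDNF, fell far less, from 100.8 and 101.4 CPM to 76.9 and 74.6 CPM (-0.42 ± 0.05). Both receptor genes of GDNF were thus lower in RA, and *Ret* by more. *Id4*, an inhibitor of differentiation enriched in stem cells, went from 14.7 and 13.9 CPM to 4.23 and 3.78 CPM (-1.85 ± 0.12). *Mycn* fell by 1.74 ± 0.07 and *Pou3f1* by 1.14 ± 0.06. *Bcl6b* fell by 1.28 ± 0.06, and *Etv5* by 0.81 ± 0.05, from 188 and 171 CPM to 101.1 and 103 CPM. *Bcl6b*, *Etv5* and *Pou3f1* are GDNF-responsive transcription factors.

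Not every member of this list fell. *Erbb3*, a receptor tyrosine kinase, rose by 0.84 ± 0.06, and *Sall4*, a transcription factor of stem and progenitor spermatogonia, by 0.25 ± 0.05. *Taf4b*, *Piwil4*, *Utf1*, *Pax7* and *Eomes* did not pass the test. *Pou5f1*, a pluripotency factor expressed in spermatogonia in culture and not a member of the list, was named after its values were seen. It fell from 40.8 and 40.9 CPM to 13.1 and 11.2 CPM (-1.76 ± 0.08), and 14.1% of its exon bases overlap *Gm19553*.

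**Figure D2:**
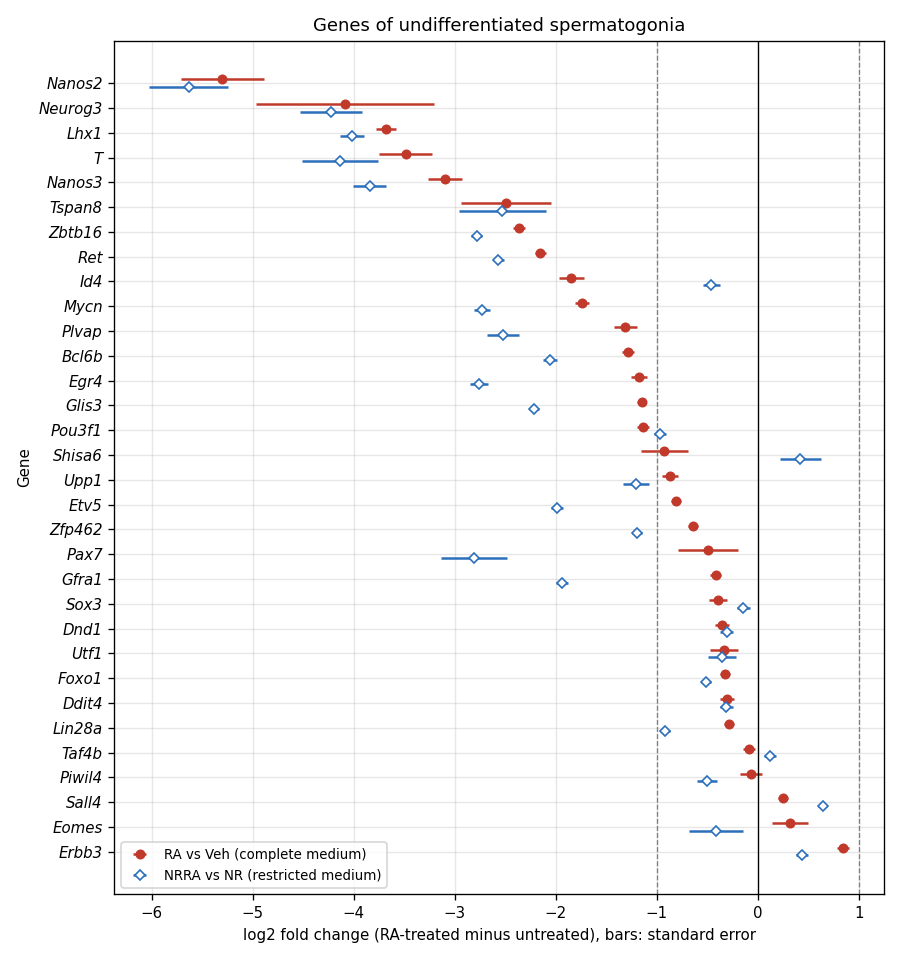
Each row is one of 32 genes of undifferentiated spermatogonia, with log2 fold changes on the x axis (red circles, RA vs Veh in complete medium; blue diamonds, NRRA vs NR in restricted medium; bars, standard error; dashed lines, 2-fold). The red circles run from a fitted -5.30 for *Nanos2* to 0.84 for *Erbb3*, and *Gfra1*, *Etv5* and *Glis3* lie further to the left in restricted medium, *Id4* further to the right.

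Of 19 receptors and feedback genes of GDNF and FGF signalling tested, 14 fell and 3 rose, against 23.4% and 19.8% of all genes. Of these, 3 were called lower and 1 was called higher, against 2.75% and 4.74% of all genes, and the median was -0.42. *Spry4*, a feedback inhibitor, fell from 133 and 132 CPM to 62.3 and 60.7 CPM (-1.11 ± 0.05). *Dusp6*, a phosphatase of ERK, fell by 0.98 ± 0.05, and *Egr2*, an immediate early gene, by 2.09 ± 0.09. *Fgfr3* was called higher, from 5.84 and 5.47 CPM to 12.6 and 13 CPM (1.18 ± 0.11), and *Fgfr1* rose by 0.19 ± 0.04. Of 15 surface and sorting markers of cultured spermatogonia tested, 10 fell and 4 rose, against 23.4% and 19.8% of all genes. Of these markers, 3 were called lower and 2 called higher, against 2.75% and 4.74%. *Mcam* fell by 1.35 ± 0.05, *Thy1* by 0.48 ± 0.05 and *Cd9* by 0.30 ± 0.05. *Itga6* rose by 0.27 ± 0.05, and *Epcam* did not pass the test (-0.06 ± 0.05).

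Genes of differentiating spermatogonia changed unevenly. Of 14 tested, 3 were called higher and 0 lower, against 4.74% and 2.75% of all genes. At the adjusted p alone 6 rose and 4 fell, against 19.8% and 23.4%, and the median was 0.10. *Kit* stood at 6.34 and 6.31 CPM in Veh and at 212 and 203 CPM in RA, 32.7-fold higher (5.03 ± 0.07, edgeR adjusted p = 9.4e-27). The third gene called, beside *Kit* and *Stra8*, was *Sycp3*, a protein of the chromosome axis (1.0 ± 0.10). Its value was 0.54 with GC and length trends removed, 0.88 without RA replicate 2 and 0.90 without Veh replicate 1, all short of 2-fold, and it has 52.2% of its exon bases on *Chpt1*. The helix-loop-helix factor *Sohlh2* rose by 0.22 ± 0.05, while *Sohlh1* was at 25.9 and 23 CPM in Veh and 22.1 and 25.5 CPM in RA. *Dnmt3b*, a methyltransferase of differentiating spermatogonia, was at 77.4 and 73.1 CPM in Veh and 75.4 and 70.2 CPM in RA (-0.05 ± 0.05). *Dmrtb1* did not pass the test either (-0.25 ± 0.20). *Ccnd2*, a D cyclin of differentiating spermatogonia, fell from 1258 and 1298 CPM to 872 and 837 CPM (-0.58 ± 0.04). The large rises were thus those of *Kit* and *Stra8*, and other genes known for this step lay within 2-fold of Veh.

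General germ cell genes changed in both directions. Of 15 tested, 4 rose and 7 fell, against 19.8% and 23.4% of all genes. Only 1 was called, against 4.74% of all genes called higher and 2.75% called lower. The median was -0.13, with summed levels of 1583 and 1608 CPM in Veh and 1632 and 1747 CPM in RA. *Dazl*, an RNA-binding protein of germ cells, rose by 0.45 ± 0.05 and *Ddx4* by 0.24 ± 0.06. *Dppa3* was called lower, from 1.78 and 1.09 CPM to 0.15 and 0.14 CPM (-3.28 ± 0.46). Of 9 enzymes of DNA methylation tested, 0 were called. *Dnmt3l* fell by 0.86 ± 0.21 and *Dnmt3a* by 0.43 ± 0.05, and *Tet2* rose by 0.41 ± 0.08.

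Over all genes, the 12 largest rises were taken from genes that averaged 50 reads or more and did not overlap between RA and Veh, and they held more than retinoid genes. Beside *Stra8*, *Cyp26a1*, *Rarb*, *Kit*, *Stra6* and *Cyp26c1*, these were *Btn1a1* (6.86 ± 0.38), *Csn3* (5.35 ± 0.25), *Sprr1a* (4.49 ± 0.12), *Srms* (4.30 ± 0.33), *Alox12b* (4.27 ± 0.29) and *1810020O05Rik* (4.05 ± 0.28). *Btn1a1*, butyrophilin, and *Csn3*, kappa-casein, are known from milk. *Sprr1a* and *Alox12b* are known from the barrier of the epidermis. *Sprr1a* was the most clearly measured of these, at 2.63 and 2.03 CPM in Veh and 52.7 and 52.6 CPM in RA. *Btn1a1* was at 0 and 0.21 CPM in Veh and at 13.2 and 11.7 CPM in RA, so the size of its rise rests on very few reads in Veh. *1810020O05Rik* is a long noncoding RNA with 52.3% of its exon bases on *E230015B07Rik*, on the opposite strand.

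The 12 largest falls by the same rule included developmental regulators. The genes were *Skor1* (-4.84 ± 0.17), *Barhl2* (-4.02 ± 0.10), *Pcdh12* (-3.71 ± 0.24), *Lhx1*, *Tcl1* (-3.59 ± 0.11), *T*, *Nanos3*, *Foxa2* (-3.03 ± 0.14), *Lhx5* (-2.95 ± 0.19), *Chrna4* (-2.92 ± 0.11), *Nefm* (-2.92 ± 0.06) and *Rspo2* (-2.86 ± 0.11). *Barhl2*, *Lhx1*, *Lhx5*, *Foxa2* and *T* encode transcription factors of the early embryo and nervous system, and *Skor1* a corepressor. *Barhl2* was at 64.9 and 61.0 CPM in Veh and at 4.18 and 3.68 CPM in RA. *Skor1* was at 19.1 and 17.7 CPM in Veh and at 0.61 and 0.66 CPM in RA. *Nefm*, a neurofilament subunit, fell from 163 and 166 CPM to 22 and 21.5 CPM, with 19.2% of its exon bases on *Nefl*. *Tcl1*, a coactivator of the AKT kinase, fell from 35.0 and 32.7 CPM to 3.11 and 2.6 CPM, and *Rspo2*, a Wnt agonist, from 26.8 and 26.0 CPM to 3.67 and 3.61 CPM.

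Hox genes, which lie in 4 clusters in the order of their domains along the body axis, differed in direction by position. The falls lay mostly in the Hoxc cluster. Of 39 listed, 34 were tested, and 5 had at most 9 reads in each library. Over all genes, 19.8% rose, 23.4% fell, 4.74% were called higher and 2.75% called lower. Of the 13 in paralog groups 1 to 5, 11 rose, 0 fell and 3 were called higher, with a median of 0.68. Of the 12 in groups 6 to 9, 4 rose, 2 fell and 0 were called, with a median of 0.02. Of the 9 in groups 10 to 13, 1 rose, 5 fell and 4 were called lower, with a median of -0.63. *Hoxb1*, an early target of RA, went from 3.42 and 3.44 CPM to 20.8 and 21.3 CPM (2.62 ± 0.12), *Hoxa5* rose by 1.12 ± 0.10 and *Hoxa2* by 1.23 ± 0.37. *Hoxa2* lost its call without RA replicate 2 (1.0, edgeR adjusted p = 0.12) and without Veh replicate 2 (1.09, adjusted p = 0.055). At the other end, *Hoxc11* fell from 20.6 and 15.3 CPM to 5.30 and 5.72 CPM (-1.70 ± 0.14), *Hoxc12* by 1.81 ± 0.13 and *Hoxc13* by 1.30 ± 0.09. *Hoxa13* had 17 and 11 reads in Veh and 3 and 2 in RA, a ratio of 6.89 with an interval from 2.63 to 22.9. The exception was *Hoxb13*, which went from 15.1 and 12.8 CPM to 33.6 and 34.4 CPM (1.29 ± 0.09). Beside *Hoxa13*, the genes that fell were *Hoxc6*, *Hoxc9*, *Hoxc10*, *Hoxc11*, *Hoxc12* and *Hoxc13*, all of the Hoxc cluster. *Hoxa10*, *Hoxa11* and *Hoxd10* did not pass the test (edgeR adjusted p = 0.13, 0.107 and 0.145).

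**Figure D3:**
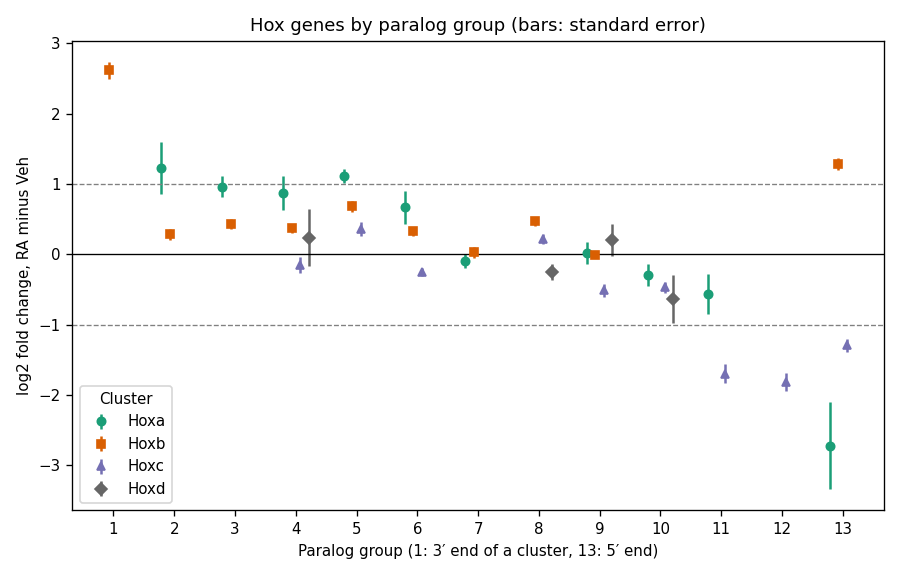
Log2 fold changes of RA vs Veh for 33 of the 34 Hox genes tested, by paralog group (x axis) and cluster (symbols), with standard errors as bars and dashed lines at 2-fold. Points lie mostly above 0 on the left, near 0 in the middle and mostly below 0 on the right, with an exception in *Hoxb13* at 1.29.

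Markers of fibroblasts, the cells of the feeder layer, mostly fell by a small amount, with 1 large exception. Of 26 tested, 20 fell and 3 rose, against 23.4% and 19.8% of all genes, and the median was -0.34. Of the list, 0 were called lower and 1 was called higher, against 2.75% and 4.74% of all genes. *Col1a1*, the main collagen chain of connective tissue, was at 3761 and 3723 CPM in Veh and at 3477 and 3203 CPM in RA (-0.16 ± 0.04). *Col3a1* fell by 0.35 ± 0.04, *Col1a2* by 0.32 ± 0.04 and the filament protein *Vim* by 0.35 ± 0.04. *S100a4* stood at 3.22 and 3.07 CPM in Veh and 1.99 and 1.98 CPM in RA (-0.67 ± 0.22), and 51.7% of its exon bases overlap *Gm42674* on the same strand. *Pdgfrb*, the PDGF receptor of perivascular fibroblasts, fell by 0.84 ± 0.04, whereas its relative *Pdgfra* rose by 0.22 ± 0.05. *Lum*, *Dcn* and *Postn* did not pass the test. The exception, *Fap*, is a surface protease of activated fibroblasts that went from 2.92 and 4.22 CPM to 28.0 and 29.2 CPM (3.01 ± 0.11, edgeR adjusted p = 3.9e-17). Fibroblast genes thus spanned a range from -0.96 for *Col6a2* to 3.01 for *Fap*.

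Among 42 collagen chains tested, 17 fell and 8 rose, against 23.4% and 19.8% of all genes, so the share that rose was near that of all genes. Of the chains, 3 were called lower and 4 called higher, against 2.75% and 4.74%. Of those called higher, *Col9a2* lost its call without RA replicate 2 (edgeR adjusted p = 0.18), without Veh replicate 2 (adjusted p = 0.15) and in DESeq2 (adjusted p = 0.098). *Col6a5* lost its call without RA replicate 2 (edgeR adjusted p = 0.13) and fell short of 2-fold without Veh replicate 1 (0.94). *Col6a3*, a chain of the microfibrillar collagen VI, fell from 529 and 507 CPM to 172 and 154 CPM (-1.67 ± 0.05), and *Col6a1* and *Col6a2* fell by 0.90 ± 0.04 and 0.96 ± 0.04. *Col13a1* fell by 2.16 ± 0.09 and *Col2a1* by 1.16 ± 0.08. *Col22a1* rose by 1.51 ± 0.11 and *Col8a2* by 1.41 ± 0.23, both from low levels. Of 10 small proteoglycans tested, 4 fell and 1 rose, against 23.4% and 19.8% of all genes. *Prelp* fell by 1.5 ± 0.10, while *Ogn*, osteoglycin, rose from 2.63 and 2.76 CPM to 12 and 12.2 CPM (2.17 ± 0.13).

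Matrix proteases and their inhibitors fell more often than they rose, 12 against 3 of 19, with a median of -0.40. Of all genes, 23.4% fell and 19.8% rose. *Mmp3*, stromelysin, fell from 2293 and 2466 CPM to 1101 and 1011 CPM (-1.17 ± 0.04). *Timp1* and *Timp2*, inhibitors of these proteases, fell by 0.59 ± 0.04 and 0.56 ± 0.04. *Plau*, urokinase, was called higher, from 127 and 123 CPM to 302 and 280 CPM (1.22 ± 0.05). Of 16 contractile and myofibroblast genes, 5 rose and 3 fell, against 19.8% and 23.4% of all genes. In this list 0 were called, against 4.74% of all genes called higher and 2.75% called lower. *Acta2*, smooth muscle actin, fell by 0.54 ± 0.05, while *Tpm1* rose by 0.68 ± 0.04 and *Ccn2* by 0.78 ± 0.05. *Tagln* did not pass the test (-0.10 ± 0.05), and 62.4% of its exon bases overlap *Gm48529* on the opposite strand.

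Of 27 growth factors known from fibroblasts, 9 rose and 11 fell, against 19.8% and 23.4% of all genes. Only 1 was called, higher, against 4.74% of all genes called higher and 2.75% called lower. *Kitl*, the ligand of KIT, went from 18 and 21.8 CPM to 51.3 and 54.9 CPM (1.42 ± 0.08). *Gdnf* was at 10.0 and 10.6 CPM in Veh and at 19.9 and 18.3 CPM in RA (0.89 ± 0.10), and *Fgf2* rose by 0.76 ± 0.11. So transcripts of the ligands of KIT and of RET both rose, while the receptor genes moved apart, with log2 fold changes of 5.03 for *Kit* and -2.15 for *Ret*. *Fgf10* fell by 0.99 ± 0.10, *Csf1* by 0.65 ± 0.04 and *Gas6* by 0.94 ± 0.05. *Igf1* was at 2.63 and 2.61 CPM in Veh and 2.14 and 3.43 CPM in RA and did not pass the test.

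Of 20 chemokines and cytokines tested, 14 fell and 2 rose, against 23.4% and 19.8% of all genes. Of the list, 5 were called lower and 0 higher, against 2.75% and 4.74%, and the median was -0.49. *Cxcl1* went from 260.5 and 262 CPM to 102 in both RA libraries (-1.36 ± 0.04), *Cxcl5* fell by 1.25 ± 0.06, *Ccl11* by 1.32 ± 0.08 and *Tslp* by 1.68 ± 0.15. *Tnf* was called near the threshold (-1.03 ± 0.20) and fell short of 2-fold without RA replicate 2 (-0.84) or Veh replicate 2 (-0.79). *Il33* rose by 0.42 ± 0.06. Of the 18 interferon response genes, 6 fell, 2 rose and 0 were called, with a median of -0.04. The 9 macrophage markers, of which 4 fell and 0 rose, summed to 289 and 288 CPM in Veh and to 255 and 233 CPM in RA.

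**Figure D4:**
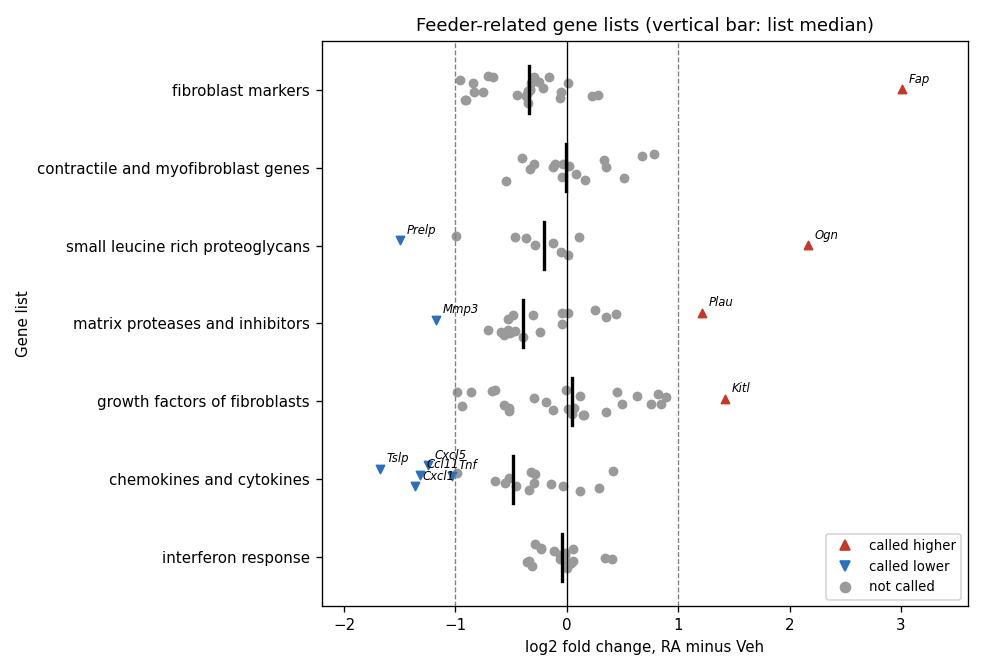
Log2 fold changes of RA vs Veh for genes of 7 lists related to the feeder cells, with the median of each list as a vertical bar and dashed lines at 2-fold. *Cxcl15*, with at most 3 reads in any of the 4 libraries, is not drawn. Most points lie between the dashed lines and left of 0, *Fap*, *Ogn*, *Kitl* and *Plau* lie to the right, and 5 chemokines and cytokines lie to the left.

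In 3 signalling lists whose genes both cell types can express, calls stood against 4.74% of all genes called higher and 2.75% called lower. Among 18 Wnt targets and feedback genes, 2 were called higher and 2 lower. *Sp5* fell from 38.6 and 33.7 CPM to 6.78 and 7.35 CPM (-2.35 ± 0.10) and *Dkk2*, a Wnt antagonist, by 1.71 ± 0.06. *Lgr6*, a receptor for R-spondins, rose from 6.93 and 7.76 CPM to 53.7 and 50.6 CPM (2.83 ± 0.10) and *Sfrp2* by 1.62 ± 0.07. The target *Axin2* rose by 0.79 ± 0.11. Among 15 BMP targets and Id genes, 9 fell and 1 rose, against 23.4% and 19.8% of all genes, and 5 were called lower. The BMP antagonist *Grem1* fell by 1.33 ± 0.05. *Id1* fell by 0.70 ± 0.08, and *Id2* did not pass the test. Among 16 Notch pathway genes, 2 were called higher and 2 lower. The ligand *Jag1* fell by 1.23 ± 0.06, and the ligand *Dll4*, at or under 0.87 CPM, was called higher (1.38 ± 0.46). *Dll4* lost its call without RA replicate 2 (1.38, edgeR adjusted p = 0.079) and without Veh replicate 2 (0.97, adjusted p = 0.16). Of 15 D cyclins and CDK inhibitors, 6 rose and 6 fell, against 19.8% and 23.4% of all genes, and 0 were called.

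Whether RA acted alike in restricted medium was asked with NRRA and NR, libraries that the RA vs Veh comparison does not share. Of the 970 genes called higher by RA in complete medium, 628 (64.7%) also rose in NRRA vs NR, where 21.3% of all genes rose, and 13 fell. Of the 564 called lower, 468 (83.0%) also fell, where 22.1% of all genes fell, and 3 rose. The difference between the media was tested for each gene as an interaction, (NRRA minus NR) minus (RA minus Veh). It was called for 459 of all genes (2.24%), for 108 of the genes called higher by RA (11.1%) and for 77 of those called lower (13.7%). Among the 108, the RA effect was lower in restricted medium for 95. Among the 77, the interaction was above 0 for 35 and below 0, a larger fall in restricted medium, for 42. The genes of both sets were selected for a large value in one of the 2 effects being compared. By itself, such selection moves the difference below 0 for genes called higher and above 0 for genes called lower. It can raise these shares, which are therefore given as a description.

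Direct targets differed in whether the medium mattered. The RA effect on *Cyp26a1* was 8.0 ± 0.12 in complete and 8.18 in restricted medium, and on *Rarb* 6.55 ± 0.15 and 6.43, with no interaction called. The effect on *Stra8* was 2.90 ± 0.15 lower in restricted medium (edgeR adjusted p of the interaction 1.8e-13), where *Stra8* stood at 14.6 and 14.3 CPM without RA and at 917 and 957 CPM with it. The smaller RA effect on *Stra8* thus went with a higher level before RA. *Kit* followed the same pattern, from 23.8 and 23.6 CPM in NR to 359 and 357 CPM in NRRA (interaction -1.12 ± 0.10). The effects on *Tgm2*, *Cyp26b1* and *Crabp2* were larger in restricted medium, with interactions of 1.81 ± 0.10, 1.55 and 1.46.

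In the stem cell programme, *Gfra1* changed by -0.42 in complete medium and -1.94 in restricted medium, with an interaction of -1.52 (edgeR adjusted p = 2.0e-13). *Etv5* changed by -0.81 and -1.99 (interaction -1.18). *Id4* went the other way, with -1.85 and -0.46 (interaction 1.39). *Nanos2*, *Lhx1* and *Ret* were called lower by RA in either medium. Among the genes with the largest negative interaction, *Agtr2*, an angiotensin receptor, rose by 1.77 ± 0.08 with RA in complete medium, from 10.4 and 11.5 CPM to 38.9 and 35.7 CPM. In restricted medium it fell, from 47.7 and 48.3 CPM to 16.3 and 16.9 CPM (interaction -3.30 ± 0.11). *Sall3*, a zinc finger factor, changed by -1.85 in complete and -4.03 in restricted medium.

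**Figure D5:**
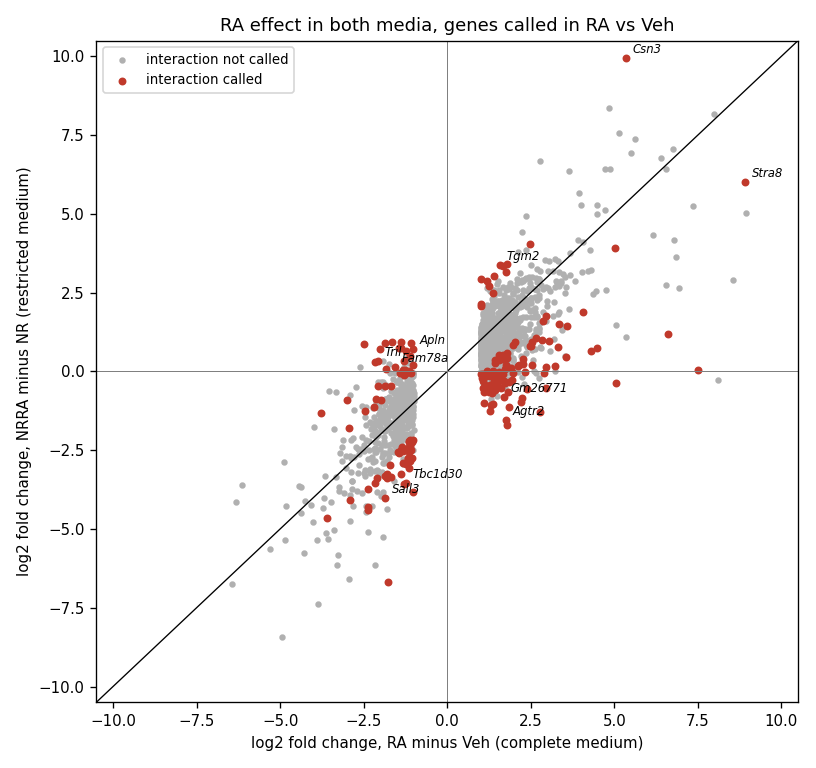
Each point is one of the 1534 genes called in RA vs Veh, with its log2 fold change in complete medium on the x axis and in restricted medium (NRRA minus NR) on the y axis. Red points have a called interaction, the line marks equal effects, and *Stra8* lies below the line and *Agtr2* below 0 on the y axis. The empty band around 0 on the x axis is the 2-fold threshold.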

How the data were processed

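RNA of 4 conditions, with 2 libraries each, had been made into poly(A) libraries and sequenced on a NovaSeq instrument. The labels name a TruSeq kit, and the study describes a strand-selecting one. The authors deposited counts of reads per gene as whole numbers without normalization. The submitters' processing notes list bcl2fastq, STAR 2.6.1c, featureCounts 1.6.4 and mm10. Whether counting used the strand is not given in the sources used here, so genes that overlap others are uncertain. Conditions came from the labels, columns were matched to libraries through them, and 0 columns had no sample. 

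Here counts were filtered (filterByExpr), scaled by TMM and fitted with edgeR 4.0.16 (R 4.3.3) across all 8 libraries, with 1 coefficient per condition and 4 residual degrees of freedom. Calls needed 2-fold change and p under 0.05 after adjustment. SE is the absolute log2 fold change over the square root of F. It can understate the error of large changes from few reads. For *Cyp26a1* it was 0.12 in complete and 0.13 in restricted medium, but 0.44 for their difference. Ratios at or under 3 reads per library carry exact 95% binomial intervals, which cover counting error only. Overlaps and coordinates are from GENCODE M21 (GRCm38), promoter windows from RefSeq, and figures were drawn with matplotlib 3.10.9.

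The genes and lists were chosen with earlier results of these data known. Named by rule were the 12 called genes with the largest rise and the 12 with the largest fall (mean of at least 50 reads, no overlap), up to 6 called members per list and direction, 40 genes known for retinoid response, spermatogonia and fibroblasts, and 5 called genes per direction of the interaction. Other members were named to show the range of a list. Alternatives were DESeq2 1.42.0, RLE scaling, library totals, other filters and folds, fewer libraries, a replicate block and, added after seeing the data, removal of GC and length trends. The models were tested on simulated data. Some genes are not reported here by name.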

Additional observations from a re-analysis of the deposited data

Results flagged for a closer look

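By the edgeR interaction test at a fold of at least 2, the RA effect differed between media for 35 of 130 genes named by rule. Over all genes, the interaction was called for 2.24%. Of the named genes, 5 per direction were chosen for a called interaction and many others for a large RA effect. The count is therefore no result about the named genes as a set. The values are log2 differences, (NRRA minus NR) minus (RA minus Veh). In the retinoid lists these were *Stra8* (-2.90), *Cyp26b1* (1.55), *Crabp2* (1.46), *Tgm2* (1.81), *Nrip1* (-1.10) and *Bco1* (-1.96). In the germ cell lists they were, beside *Stra8*, *Kit* (-1.12), *Gfra1* (-1.52), *Etv5* (-1.18), *Id4* (1.39), *Dmrtb1* (-1.80) and *Egr2* (-1.29). In the lists of fibroblast genes and collagen chains they were *Acta2* (1.33), *Kitl* (-1.05), *Tslp* (1.21), *Col8a2* (-1.76) and *Col13a1* (-1.38). *Acta2* fell with RA in complete medium and rose by 0.79 in restricted medium. In the signalling, Hox and Sertoli cell lists they were *Lgr6* (-1.83), *Sfrp2* (-2.14), *Nrarp* (1.01), *Hoxc11* (-1.64), *Hoxc12* (-1.44) and *Sox9* (-1.22).

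Among the genes with the largest changes, the differences were -2.16 for *1810020O05Rik*, -1.16 for *Nefm*, 1.15 for *Lhx5* and -1.07 for *Tcl1*. Chosen for their negative values, beside *Stra8*, were *Agtr2* (-3.30), *Gm26771* (-2.49), *Tbc1d30* (-2.31) and *Sall3* (-2.18). *Gm26771* is an antisense transcript with 32.1% of its exon bases on *Sfrp2*, so both may share reads. Chosen for their positive values, beside *Tgm2*, were *Csn3* (4.58), *Tril* (2.41), *Apln* (1.72) and *Fam78a* (1.70). For *Csn3* both NR libraries had 0 reads, so the fitted value depends on the prior count. Against 3 reads in each NR library it was at least 39.5-fold higher in NRRA, beside 40.8-fold higher in RA than in Veh. *Apln*, called lower by RA in complete medium, fell short of 2-fold without RA replicate 1 (-0.91) and without Veh replicate 1 (-0.75). Of the genes named outside the rule, the interaction was also called for *Dusp6* (-1.39), *Pax7* (-2.32), *Glis3* (-1.07) and *Cdh3* (1.28). The causes of these differences were not tested.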

How the results depend on the processing

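The replicate numbers did not pair the libraries (correlations of deviations from -0.033 to 0.023). A replicate block gave 955 genes called higher and 563 lower, of which 941 and 553 are shared with the 970 and 564 of the report, and it ended the calls of *Sycp3* (0.99), *Krt7* (1.2) and *Krt75* (-1.56) among the named genes. DESeq2 called 704 and 478, a filter at a mean of 50 reads left 400 and 264, no fold threshold gave 4048 and 4789, and a fold of 1.5 gave 1912 and 1195. Library totals in place of TMM gave 1190 and 476, raising the share of calls that were higher from 63.2% to 71.4%. The interaction was called for 281 genes by DESeq2 against 459. Leaving out 1 library left a condition with 1, and part of the calls of the report was then lost in each direction. The fibroblast median was -0.24 with library totals, under which the median of all genes was 0.083. List medians near 0 changed sign. That of contractile genes was 0.093 with library totals and 0.070 at a mean of 50 reads, and from 0.0018 to 0.12 without 1 library. Without 1 library, those of retinoid synthesis, Notch and D cyclins ran from -0.029 to 0.12, from -0.29 to 0.055 and from -0.13 to 0.073, and that of keratins was 0.47 with RA and Veh libraries only. Genes that had not passed the test changed sign too. Without 1 library, *Sohlh1* ran from -0.15 to 0.086, *Dnmt3b* from -0.10 to 0.012, *Igf1* from -0.29 to 0.39 and *Dmrtb1* from -0.51 to 0.14. *Sohlh1* was 0.072 with library totals, 0.018 at a mean of 50 reads and 0.031 with GC and length trends removed. *Dnmt3b* was 0.051 with library totals and 0.021 with trends removed, and *Igf1* -0.23 with trends removed. The causes were not tested. With 2 libraries a condition, genes near 1 CPM have wide errors.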

Other observations

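Keratins, Rhox genes and the Bcl2 family had not been described above. Of 50 keratin genes listed, 15 were tested. *Krt20*, of differentiated epithelia, rose from 0.54 and 0.42 CPM to 3.93 and 3.57 CPM (2.94 ± 0.30), and *Krt12*, *Krt13* and *Krt7* were called higher from levels under 0.31 CPM in Veh. *Krt19* fell from 13.5 and 12.1 CPM to 6.02 and 5.13 CPM (-1.21 ± 0.13) and *Krt75* was called lower. The calls of *Krt7*, *Krt13* and *Krt75* were lost in the absence of RA replicate 2 (0.86, 1.63 and -0.98), and *Krt7* and *Krt75* also without Veh replicate 1 (1.34 and -1.28) or Veh replicate 2 (1.15 and -1.79), as was *Krt13* without the latter (1.88). *Krt24* had 40 and 27 reads in Veh and 2 in each RA library, a ratio of 20.6 with a counting interval from 7.69 to 77.9. Of 32 Rhox genes, homeobox genes of a cluster on the X chromosome, 16 were tested. Of these, 5 rose and 0 fell, against 19.8% and 23.4% of all genes. *Rhox10*, known from the first spermatogonia, went from 2.48 and 3.28 CPM to 6.32 and 8.50 CPM (1.39 ± 0.18), and *Rhox9* and *Rhox6* were called from under 0.35 CPM, with *Rhox6* losing its call in the absence of RA replicate 2 (1.49, edgeR adjusted p = 0.13). Near-identical Rhox copies can share reads. In the Bcl2 family, 3 of 16 rose and 8 fell, against 19.8% and 23.4% of all genes. The 2 called lower, against 2.75% of all genes, were the proapoptotic *Bok* (-1.25 ± 0.11) and *Bmf* (-1.14 ± 0.10).

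Some called genes outside all lists were looked up after their values were seen. *Spp1*, osteopontin, went from 2292 and 2688 CPM to 5362 and 5158 CPM (1.08 ± 0.05), and *Arg1*, arginase, from 3.32 and 4.12 CPM to 30.1 and 29.7 CPM (3.01 ± 0.12). *Ass1*, which makes argininosuccinate, fell from 1316 and 1311 CPM to 466 and 447 CPM (-1.53 ± 0.04). *Slc7a5*, an amino acid transporter, fell by 1.35 ± 0.05, *Phgdh*, the first enzyme of serine synthesis, by 1.11 ± 0.05, and *Cpt1a*, of mitochondrial fatty acid import, by 1.07 ± 0.04. Among secreted and surface proteins, *Cemip*, *Htra1* and *Tinagl1* rose by 1.47, 1.71 and 2.18, and *Sdc4* and *Cdh3* fell by 1.48 and 2.15. *Clu*, a secreted chaperone on the Sertoli cell list, rose from 8.72 and 8.86 CPM to 85.4 and 75.0 CPM (3.18 ± 0.09), while *Sox9* of the same list fell by 1.12 ± 0.08. Of the 10 Sertoli cell genes tested, 3 rose and 3 fell, against 19.8% and 23.4% of all genes.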
